A study of Mus musculus with 39 samples.

Results

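Pecam1 and 8 genes that mark the endothelium of brain vessels (Cldn5, Cdh5, Slco1a4, Abcb1a, Tek, Egfl7, Ly6c1 and Itm2a) were read by symbol from the gene count tables of CD11b+ cells taken from mouse cerebrum. Each of the 9 genes was found among the 46333 rows of the female table and the 54532 rows of the male table. The study asked how chronic intermittent hypoxia (CIH), a model of sleep apnea, acts on amyloid pathology and microglia in 5XFAD mice, a transgenic line that carries mutant human Alzheimer's disease genes and deposits amyloid. The mice came from C57BL/6J females crossed with 5XFAD males of a B6SJL background, and WT and 5XFAD mice entered CIH or normoxia (NX, 21% oxygen) at 4 months of age, and females were killed at 10 months and males at 8 months. The labels give CIH as 6.5% oxygen in 90 s intervals over 8 h a day, whereas the methods give 6% and the 12 h sleep period. The 39 libraries, 1 per numbered sample, make 8 groups: F WT NX had 4 libraries, and F WT CIH, F 5XFAD NX, F 5XFAD CIH, M WT NX, M WT CIH, M 5XFAD NX and M 5XFAD CIH had 5 each. The methods state 5 samples for each group and report that 1 normoxia female stood out in several comparisons, without naming it. All mice were perfused with buffer, and all cells went through papain digestion, Percoll and anti-CD11b magnetic beads, so the libraries hold what a bead preparation for myeloid cells carried along and not sorted vessels. Sex and age differ together, so the 2 tables were never tested against each other.

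Total counts ranged from 14731683 to 25906121 in females and from 13457293 to 23095627 in males, and levels are given as CPM, a gene's count scaled by the total count of its library. The 12 microglial markers summed to 30341 to 45904 CPM in every library. One library went against its label. The library labelled F 5XFAD NX 4 had 18.9 CPM of Cst7, a microglial gene of amyloid-bearing brain, where the other 9 F 5XFAD libraries had 1110 to 2170 CPM and the 9 F WT libraries 8.45 to 18.1 CPM. Its Gfap (2.10 CPM, against 84.6 to 390 and 0.268 to 1.59), Itgax and Clec7a lay at the WT side as well. Several of its summed marker lists lay there too. Platelet markers summed to 34.3 CPM (5.67 to 13.1 CPM in the other F 5XFAD libraries). Leukocyte adhesion genes summed to 1480 CPM (1350 CPM or less) and further endothelial genes to 486 CPM (611 CPM or more). Not all sums did: its 6 border macrophage markers summed to 95.2 CPM, below every F WT library (144 to 336 CPM), and its microglial markers to 35954 CPM, between the other F 5XFAD libraries (30675 to 32431 CPM) and F WT (38370 CPM or more). Its 8 neutrophil markers summed to 313 CPM, above the other F 5XFAD NX libraries (9.31 to 59.1 CPM) and every F WT library (44.8 to 246 CPM). The fitted values of the 9 genes, the list counts and the correlations that use this library are therefore given with and without it.

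Endothelial cells of brain vessels form the blood-brain barrier: tight junctions close the gaps between them, carrier proteins move chosen solutes across, and efflux pumps return drugs to the blood. PECAM1 (CD31) is an adhesion protein at the contacts between endothelial cells, and it is also found on platelets, neutrophils, monocytes and other leukocytes. CD11b, the bead target, is an integrin subunit of myeloid cells.

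The 8 vessel genes moved together from library to library, so the sequence just before their start sites is shown for the members with 1 RefSeq promoter entry whose start lay within 100 bases of the start in the male table. Of the 9 members, 7 had an entry; Ly6c1 had 2 and Egfl7 had 3, the Abcb1a start lay 92986 bases away, and 4 met the rule. The 250 bases before the start are printed 5′ to 3′ on the gene's strand from RefSeq (GRCm38.p6), with capitals for GGAA, the core of ETS sites, and for ACAAT, a core of SOX sites, both strands searched. The stretches are chr16:18776597-18776846 on the plus strand for Cldn5, chr6:141856221-141856470 on the minus strand for Slco1a4, chrX:107403361-107403610 on the minus strand for Itm2a and chr4:94739039-94739288 on the plus strand for Tek.
Cldn5: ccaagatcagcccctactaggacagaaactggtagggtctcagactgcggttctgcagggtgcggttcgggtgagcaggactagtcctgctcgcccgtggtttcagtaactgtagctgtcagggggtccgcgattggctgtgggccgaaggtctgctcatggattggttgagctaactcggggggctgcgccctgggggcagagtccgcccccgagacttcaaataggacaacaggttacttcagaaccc
Slco1a4: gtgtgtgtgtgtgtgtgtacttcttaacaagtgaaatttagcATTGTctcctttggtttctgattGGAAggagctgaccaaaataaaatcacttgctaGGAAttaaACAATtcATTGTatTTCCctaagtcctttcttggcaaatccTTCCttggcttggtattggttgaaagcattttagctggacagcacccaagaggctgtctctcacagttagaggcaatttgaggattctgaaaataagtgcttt
Itm2a: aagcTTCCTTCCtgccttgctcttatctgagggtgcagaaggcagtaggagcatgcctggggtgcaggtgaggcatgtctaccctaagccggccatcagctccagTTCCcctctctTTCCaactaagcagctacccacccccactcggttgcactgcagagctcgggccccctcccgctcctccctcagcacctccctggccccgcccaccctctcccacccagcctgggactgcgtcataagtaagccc
Tek: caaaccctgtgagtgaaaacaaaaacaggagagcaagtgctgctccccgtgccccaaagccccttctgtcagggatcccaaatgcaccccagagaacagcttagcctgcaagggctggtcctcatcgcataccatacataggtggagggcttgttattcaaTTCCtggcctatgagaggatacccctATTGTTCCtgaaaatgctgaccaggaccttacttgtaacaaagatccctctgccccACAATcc
Slco1a4 held 4 GGAA and 3 ACAAT matches, Itm2a held 4 and 0, and Tek held 2 and 2, with 1 pair overlapping in ATTGTTCC. Cldn5 held 0 of either. Of 32851 promoters of this length, 93.4% held GGAA and 27.7% held ACAAT, so the matches describe these letters and nothing more.

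Per transcript length, Pecam1 was the most abundant member in females, with a median of 12.7 FPKM over 19 libraries, and Ly6c1 (3.60 FPKM), Cldn5 (3.54 FPKM) and Egfl7 (3.42 FPKM) came next. Itm2a (1.29 FPKM), Slco1a4 (1.08 FPKM), Cdh5 (0.886 FPKM), Abcb1a (0.675 FPKM) and Tek (0.477 FPKM) followed. In males the median of Cldn5 was 7.98 FPKM, that of Ly6c1 6.91 FPKM and that of Pecam1 5.50 FPKM, ahead of Itm2a (2.79 FPKM), Egfl7 (1.98 FPKM), Slco1a4 (1.60 FPKM), Cdh5 (0.998 FPKM), Abcb1a (0.861 FPKM) and Tek (0.751 FPKM). Neighbours in either order overlapped across libraries. The place of Pecam1 depended on the group: its median was 7.02 FPKM in M WT CIH, above Cldn5 (4.67 FPKM) and Ly6c1 (2.46 FPKM), and 3.21 FPKM in M 5XFAD NX, below Cldn5 (22.4 FPKM) and Ly6c1 (7.94 FPKM). The tables use different gene lengths for Pecam1, so FPKM was not compared between them. Within a table, Pecam1 varied less than the tight junction gene Cldn5: its highest library was 7.71 times its lowest in females and 6.67 times in males, against 176 and 69.2 times for Cldn5. The lowest Cldn5 libraries held only 2 counts in females and 9 in males, against 136 and 130 for Pecam1. The Cldn5 ratios thus include counting error, and the Pecam1 ratios include its genotype difference. In females Egfl7 (6.39 times) and Cdh5 (6.59 times) varied less than Pecam1.

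Pecam1 (ENSMUSG00000020717; GRCm38, chromosome 11, 106654217 to 106750628, minus strand, protein coding) was lower in 5XFAD than in WT in both sexes and under both treatments. Replicates 1 to 4 of F WT NX had 54.4, 55.9, 51.8 and 40.9 CPM, and replicates 1 to 5 of F WT CIH had 50.9, 41.6, 54.1, 57.6 and 61.0 CPM. F 5XFAD NX had 11.3, 7.91, 15.3, 43.9 and 10.98 CPM, and F 5XFAD CIH had 8.42, 16.1, 17.1, 14.7 and 10.98 CPM. All F 5XFAD libraries but the library labelled F 5XFAD NX 4 lay below every F WT library. In males, M WT NX had 40.7, 60.5, 55.6, 56.9 and 59.6 CPM, and M WT CIH had 48.6, 54.3, 46.8, 58.1 and 49.7 CPM. M 5XFAD NX had 20.8, 28.9, 17.4, 18.1 and 16.3 CPM, and M 5XFAD CIH had 9.07, 20.1, 14.0, 18.5 and 9.19 CPM. The 10 M WT and the 10 M 5XFAD libraries did not overlap.

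In F WT CIH vs F 5XFAD CIH the mean of Pecam1 was 53.1 ± 7.43 CPM (SD, n = 5) against 13.5 ± 3.66 CPM (SD, n = 5), with a log2FC of −1.79 (SE 0.158; edgeR quasi-likelihood test, FDR = 8.86e-07). A gene is called here when the Benjamini-Hochberg FDR is below 0.05 and the absolute log2FC is above 1, which held for 13% of the 14911 genes tested, and 31.9% had 5XFAD libraries all below WT as Pecam1 did. In M WT NX vs M 5XFAD NX Pecam1 had a mean of 54.7 ± 8.08 CPM in WT and 20.3 ± 5.10 CPM in 5XFAD (SD over 5 libraries each), a log2FC of −1.22 with an SE of 0.196 (edgeR FDR = 0.000843), where 8.25% of 14834 genes were called and 13.2% lay wholly below WT. In M WT CIH vs M 5XFAD CIH the means were 51.5 ± 4.61 and 14.2 ± 5.12 CPM (SD over 5 libraries each) and the log2FC was −1.50 with an SE of 0.186 (edgeR FDR = 1.49e-05), where 18.7% of 14793 genes were called and 34.4% lay wholly below WT. Pecam1 was therefore 1 of many genes that differed by genotype, and in bulk RNA fewer cells that express it and less of its RNA per cell cannot be told apart. The shares wholly below WT use CPM by library total alone, without the further scaling of the fits. In M CIH 5090 genes lay wholly below WT and 1699 wholly above, whereas the fits called 1746 genes higher and 1018 lower.

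F WT NX vs F 5XFAD NX was fitted with and without the library labelled F 5XFAD NX 4. With it, Pecam1 had 50.7 ± 6.78 CPM (SD, n = 4) in WT and 17.9 ± 14.8 CPM (SD, n = 5) in 5XFAD, with a log2FC of −1.44 (SE 0.369; edgeR FDR = 0.0363), overlapping groups, 5.99% of 14513 genes called and 7.68% wholly lower. Without it, the 5XFAD mean was 11.4 ± 3.02 CPM (SD, n = 4) and the log2FC −1.95 (SE 0.161; edgeR FDR = 2.23e-05), and 13.3% of 14149 genes were called. With that library kept, scaling by library size alone (log2FC −1.51, edgeR FDR = 0.0552) or leaving out any other library of the pair (log2FC −1.53 to −1.27, edgeR FDR 0.0679 to 0.0921) ended the call. Over all genes the count called was then 27 (without F WT NX 3) to 525 (without F WT NX 1) in place of 869, so the 5.99% is itself unsteady.

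**Figure D1:**
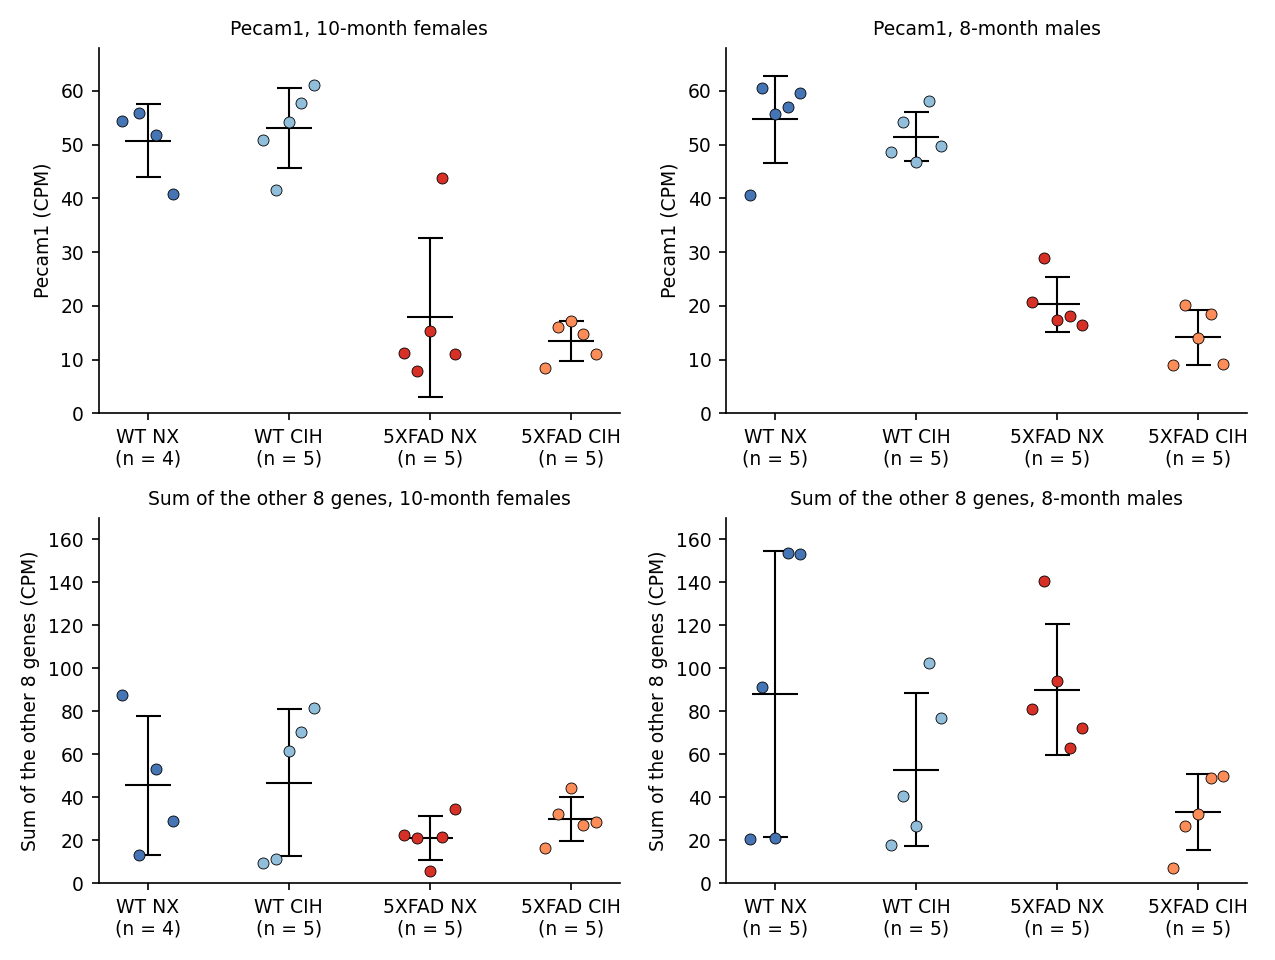
Levels by group, in CPM, for Pecam1 (top) and for the sum of the other 8 genes (bottom) in females (left) and males (right); points are libraries, the long bar is the mean and the whiskers are the SD. Pecam1 lay between 40.7 and 61.0 CPM in every WT library and below 30 CPM in every 5XFAD library except the library labelled F 5XFAD NX 4, while the sum of the other genes overlapped between WT and 5XFAD in each sex.

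None of the other 8 members was called by genotype. Their counts of calls were 0 of 8 in each of the 4 genotype comparisons by the quasi-likelihood test, by edgeR's likelihood ratio test and by DESeq2. At an unadjusted p below 0.05 there was 1 in F NX (Slco1a4), 1 in F CIH (Cdh5), and 0 in M NX and M CIH. Of all genes tested, 34.1%, 57.1%, 29.9% and 55.6% had such a p in F NX, F CIH, M NX and M CIH. Without the library labelled F 5XFAD NX 4, the F NX gene was Cdh5 (log2FC −0.99, SE 0.384; edgeR FDR = 0.0607) in place of Slco1a4, beside 7386 of 14149 genes. The shares of all genes called (5.99%, 13%, 8.25% and 18.7%) make 0 of 8 no result about these genes. Cdh5, the cadherin of endothelial adherens junctions (chromosome 8, 104101625 to 104144511), had 5.78 ± 2.35 CPM in F WT CIH and 2.97 ± 1.31 CPM in F 5XFAD CIH (SD, n = 5 each; log2FC −0.78, SE 0.319; edgeR FDR = 0.0577). Without F 5XFAD CIH 3 its log2FC was −1.05 and it was called (edgeR FDR = 0.0123). Cldn5, the main claudin of the tight junction (chromosome 16, 18776847 to 18778262), had a log2FC of −1.25 (SE 0.796; edgeR FDR = 0.292) in F NX, −1.10 without the library labelled F 5XFAD NX 4, −0.51 in F CIH, 0.26 in M NX and −0.05 in M CIH.

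The remaining members gave values of either sign and wide errors. Slco1a4, an organic anion carrier of the barrier (chromosome 6, 141805440 to 141856199), had a log2FC of −1.52 (SE 0.636; edgeR FDR = 0.125) in F NX, or −1.35 (SE 0.635; edgeR FDR = 0.111) without the library labelled F 5XFAD NX 4. Abcb1a, the drug efflux pump P-glycoprotein (chromosome 5, 8660077 to 8748575), had −1.17 in F NX (−0.95 without that library) and 0.32 in M NX. Tek, the angiopoietin receptor TIE2 (chromosome 4, 94739289 to 94874976), had −1.14 in F NX (−1.61 without that library) and 0.05 in M NX, and it had 0 counts in F 5XFAD NX 3, which at a floor of 3 counts allows up to 0.192 CPM. Egfl7, a protein that endothelial cells secrete (chromosome 2, 26580014 to 26593120), had 0.10 in F NX (0.25 without that library) and 0.23 in F CIH, the only positive values among the 8 in those 2 comparisons. For the surface proteins, Ly6c1 (chromosome 15, 75044018 to 75048830) had −1.17 in F NX (−1.09 without that library) and 0.55 in M NX, and Itm2a (chromosome X, 107397099 to 107403376) had −0.79 (−0.65 without that library) and −0.09. Ly6c1 has the close copy Ly6c2 and Abcb1a the close copy Abcb1b, so reads shared between copies make their counts uncertain.

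As a group, the 8 had a median log2FC of −1.15 in F NX (7 of 8 negative), or −1.04 without the library labelled F 5XFAD NX 4, −0.57 in F CIH (7 of 8 negative), 0.23 in M NX (2 of 8 negative) and −0.41 in M CIH (8 of 8 negative). The F NX values moved widely as each library was left out: −1.64 to −0.51 for Cldn5, −1.43 to −0.40 for Ly6c1 and −1.50 to −0.27 for Abcb1a. Tek ran from −1.61 to −0.46, Itm2a from −1.14 to −0.34, Cdh5 from −0.99 to −0.39, Slco1a4 from −1.97 to −1.23 and Egfl7 from −0.28 to 0.38. The median over all genes tested was −0.02 in F NX, −0.02 in F CIH, 0.02 in M NX and −0.06 in M CIH. In males under NX, where Pecam1 fell, the sum of the 8 was 87.9 ± 66.4 CPM in WT and 90.0 ± 30.4 CPM in 5XFAD (SD, n = 5 each). Scaling by library size alone moved the median of all genes in that comparison to −0.16, and Egfl7 (−0.03) and Tek (−0.12) then turned negative while Pecam1 had −1.43. In females the sums were 45.6 ± 32.3 CPM (SD, n = 4) in WT NX, 46.7 ± 34.2 CPM in WT CIH, 21.1 ± 10.3 CPM in 5XFAD NX and 29.7 ± 10.2 CPM in 5XFAD CIH (SD, n = 5 each), and without the library labelled F 5XFAD NX 4 the 5XFAD NX sum was 21.0 ± 11.9 CPM (SD, n = 4).

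**Figure D2:**
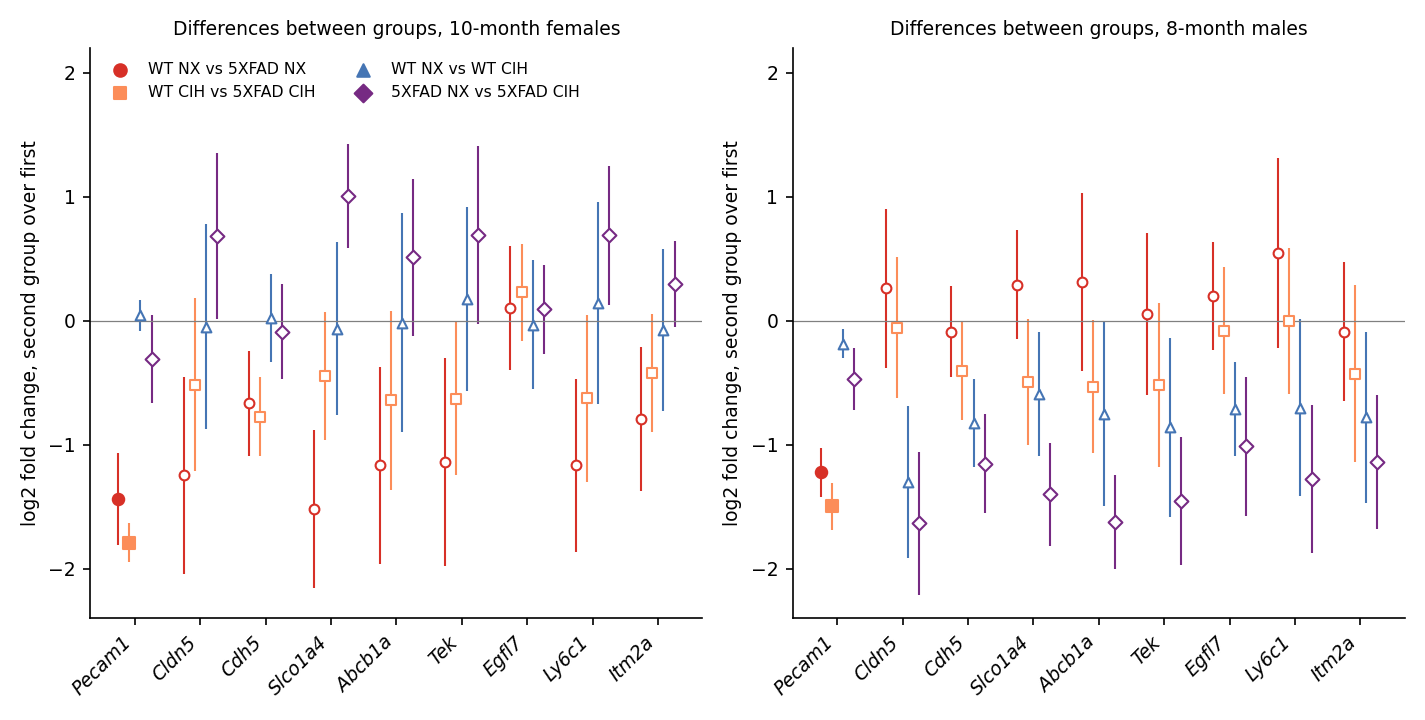
Fitted log2 fold change of each gene in 4 comparisons per sex (second group named over the first), with bars of 1 SE; filled symbols are called and open symbols are not. Pecam1 carries the only filled symbols, all for genotype, and the values of the other 8 genes for NX vs CIH in males lie below 0.

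The library spread of the vessel genes was wide within every group. The sum of the 8 was 87.5, 13.2, 53.0 and 28.8 CPM in replicates 1 to 4 of F WT NX, and 9.16, 11.1, 61.4, 70.5 and 81.5 CPM in replicates 1 to 5 of F WT CIH. It was 22.5, 21.1, 5.77, 21.5 and 34.7 CPM in F 5XFAD NX, and 16.2, 32.4, 44.4, 27.3 and 28.3 CPM in F 5XFAD CIH. High and low libraries stood side by side in both female WT groups. M WT NX had 20.5, 91.1, 21.1, 153.8 and 153.2 CPM, and M WT CIH had 17.8, 40.6, 26.5, 102.3 and 76.7 CPM. M 5XFAD NX had 80.8, 140.3, 94.2, 62.9 and 71.9 CPM, and M 5XFAD CIH had 7.12, 26.7, 31.9, 49.0 and 49.7 CPM. These last 2 groups did not overlap.

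CIH against NX gave no call among the 9 genes in any group. These comparisons use the same libraries as the genotype comparisons, so their values are set side by side only. In M 5XFAD the 8 vessel genes all had lower fitted levels under CIH, with log2FC from −1.63 (Cldn5) to −1.01 (Egfl7) and a median of −1.34, against −0.01 over all genes tested. Cldn5 had 27.6, 31.0, 27.5, 13.2 and 11.6 CPM in M 5XFAD NX and 0.628, 2.97, 9.79, 10.5 and 10.2 CPM in M 5XFAD CIH. Slco1a4 had 9.48, 19.3, 12.6, 14.6 and 13.2 CPM against 1.47, 2.43, 4.49, 7.56 and 8.14 CPM. For both carrier and claudin, the highest CIH library was below the lowest NX library. Abcb1a had 7.14, 12.2, 5.28, 7.36 and 9.07 CPM against 0.767, 1.76, 3.06, 3.38 and 3.37 CPM, and Cdh5 had 9.16, 5.88, 5.61, 4.22 and 5.50 CPM against 0.698, 3.45, 3.33, 2.25 and 3.37 CPM. These 4 of 8 had groups that did not overlap, with CIH lower, as did 0.788% of the 14334 genes tested. The 8 rose and fell together between male libraries (median r 0.839 within groups). Counts among the 8, here and below, are therefore not separate observations to be set against a share of all genes.

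None of these differences survived correction over all genes. Each of the 9 had an edgeR FDR of 0.995 in M 5XFAD, and 0.0% of genes were called. At an unadjusted p below 0.05 there were 5 of the 8 (Abcb1a, Slco1a4, Cdh5, Tek and Cldn5) and 473 of all genes. DESeq2 and the likelihood ratio test called 0 of the 8 and 1 gene in all. Pecam1 went from 20.3 to 14.2 CPM with overlapping groups (log2FC −0.47, SE 0.253, 95% interval −0.97 to 0.02). With the mean of the other 8 genes as a covariate, a fit chosen after the data were seen, its log2FC was −0.02 (SE 0.332). The sums of the 8 did not overlap between these 2 groups, so this fit cannot part the covariate from the treatment. Of the other vessel lists, 18 of 22 other endothelial genes, 11 of 12 barrier genes, 7 of 8 mural cell genes and 5 of 10 leukocyte adhesion genes had a negative log2FC, as did 7427 of the 14334 genes tested, and 10, 4, 6 and 0 of them had an unadjusted p below 0.05. None of these genes was called (edgeR quasi-likelihood test). The 8 neutrophil markers were also all negative, their sum being 72.8 to 1167 CPM in M 5XFAD NX and 51.3 to 200 CPM in M 5XFAD CIH, and their part in these values was not tested.

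In M WT the 8 vessel genes also had lower fitted levels under CIH, with a median log2FC of −0.77 (−1.30 for Cldn5 to −0.59 for Slco1a4), against −0.01 over all genes tested. No member was called, where 2.51% of 14983 genes were. Cldn5 had 3.04, 19.4, 3.98, 43.5 and 39.2 CPM in M WT NX and 4.84, 7.40, 3.88, 19.1 and 12.5 CPM in M WT CIH (log2FC −1.30, SE 0.611; edgeR FDR = 0.126). Cdh5 had a log2FC of −0.82 (edgeR FDR = 0.0952). These 2 genes had an unadjusted p below 0.05, as did 39.8% of all genes tested. Without M WT NX 1 both were called (log2FC −1.58 for Cldn5 and −1.001 for Cdh5; edgeR FDR = 0.0358 for each). Pecam1 had a log2FC of −0.18 (SE 0.113, 95% interval −0.41 to 0.04; edgeR FDR = 0.241). Without M WT NX 1 it was −0.28 (SE 0.0891, edgeR FDR = 0.0270), too small a fold to be called. Neutrophil transcripts moved in the same comparison: 6 of 8 neutrophil markers were called lower under CIH, with S100a9 at 205.0 CPM in NX and 63.0 CPM in CIH. All 5 erythroid markers had a negative log2FC as well (median −0.81), each at an unadjusted p below 0.05 and none called, with mean sums of 150.2 CPM in NX and 90.05 CPM in CIH. The part of either in the vessel gene values was not tested.

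In females CIH left the 9 genes without a called difference, and 0.0% of genes were called in either genotype by edgeR's tests or DESeq2 (18 in F WT with no filter on low counts). In F WT the 8 vessel genes had a median log2FC of −0.02 (range −0.08 for Itm2a to 0.17 for Tek), 0 had an unadjusted p below 0.05 against 565 of 14583 genes, and Pecam1 had 0.04 (SE 0.124, 95% interval −0.20 to 0.29). In F 5XFAD the median was 0.60 with 7 of 8 positive, and 1 of 8 (Slco1a4, 1.91 against 3.97 CPM, log2FC 1.01, edgeR FDR = 0.998) had an unadjusted p below 0.05, as did 470 of 14578 genes. Without the library labelled F 5XFAD NX 4 the median was 0.41, Slco1a4 had 0.83, and 0 of 8 had an unadjusted p below 0.05. Pecam1 had a log2FC of −0.31 (SE 0.356) with that library and 0.19 (SE 0.200) without it, so its sign rested on that library.

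Whether the genotype difference itself changed with treatment was tested as an interaction over the 4 groups of a sex. No member was called in either sex, where 0.0% of 15582 genes in females and 0.0% of 15813 in males were (edgeR; unadjusted p below 0.05 in 589 and 3857 genes, and in 0 of the 9 members in each sex). DESeq2 and the likelihood ratio test called 0 genes in females, and 381 and 175 in males, none of them a member. The male count of 0 by the quasi-likelihood test became 478 without M 5XFAD NX 1 and 663 with no filter on low counts. For Pecam1 the interaction was −0.36 (95% interval −1.16 to 0.44) in females, 0.14 without the library labelled F 5XFAD NX 4, and −0.29 (95% interval −0.84 to 0.26) in males.

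Pecam1 followed the other 8 genes less closely than they followed each other from library to library. Correlations were taken on log2 CPM after the mean of each group was removed, so that they describe the spread between libraries of 1 group. Among the 28 pairs of the other 8 genes, Pearson's r had a median of 0.809 in females (0.573 to 0.982, n = 19) and 0.839 in males (0.454 to 0.95, n = 20). The highest were Cldn5 with Ly6c1 in females (0.982) and Itm2a with Tek in males (0.95). For Pecam1 with each of the 8, the median was 0.0774 in females (−0.165 for Egfl7 to 0.502 for Cdh5) and 0.501 in males (0.174 for Egfl7 to 0.591 for Ly6c1). The male median was 0.299 without M 5XFAD CIH 1 and 0.593 without M 5XFAD CIH 5. Without the library labelled F 5XFAD NX 4, the female medians were 0.18 for Pecam1 and 0.874 for the other pairs (n = 18). An r above 0.5 with Pecam1 was held by 1 of the 8 members in females (0 without that library), where 18.2% of all genes had one (973 of 15581 without that library), and by 4 of the 8 in males, where 3.45% did. All points of 1 table share its libraries and their depths.

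Of the 16 relations of Pecam1 tested, 2 passed Benjamini-Hochberg correction on Pearson's r, both in males: Ly6c1 (r = 0.591, permutation p = 0.0409 adjusted) and Tek (r = 0.537, permutation p = 0.0409 adjusted). Spearman's rho for these was 0.505 and 0.499 (permutation p = 0.13 adjusted for each). After the 2 libraries farthest from the median (M WT NX 1 and M 5XFAD CIH 1) were left out, r was 0.362 for Ly6c1 and 0.256 for Tek, so these 2 relations rested on those libraries. The same step, with the 2 libraries farthest for each gene, raised r for Egfl7 (0.174 to 0.672) and Abcb1a (0.341 to 0.496) in males and for Tek (0.345 to 0.536) in females. In females Cdh5 came nearest (r = 0.502, rho = 0.502, permutation p = 0.164 and 0.136 adjusted), and r was 0.301 without the library labelled F 5XFAD NX 4.

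**Figure D3:**
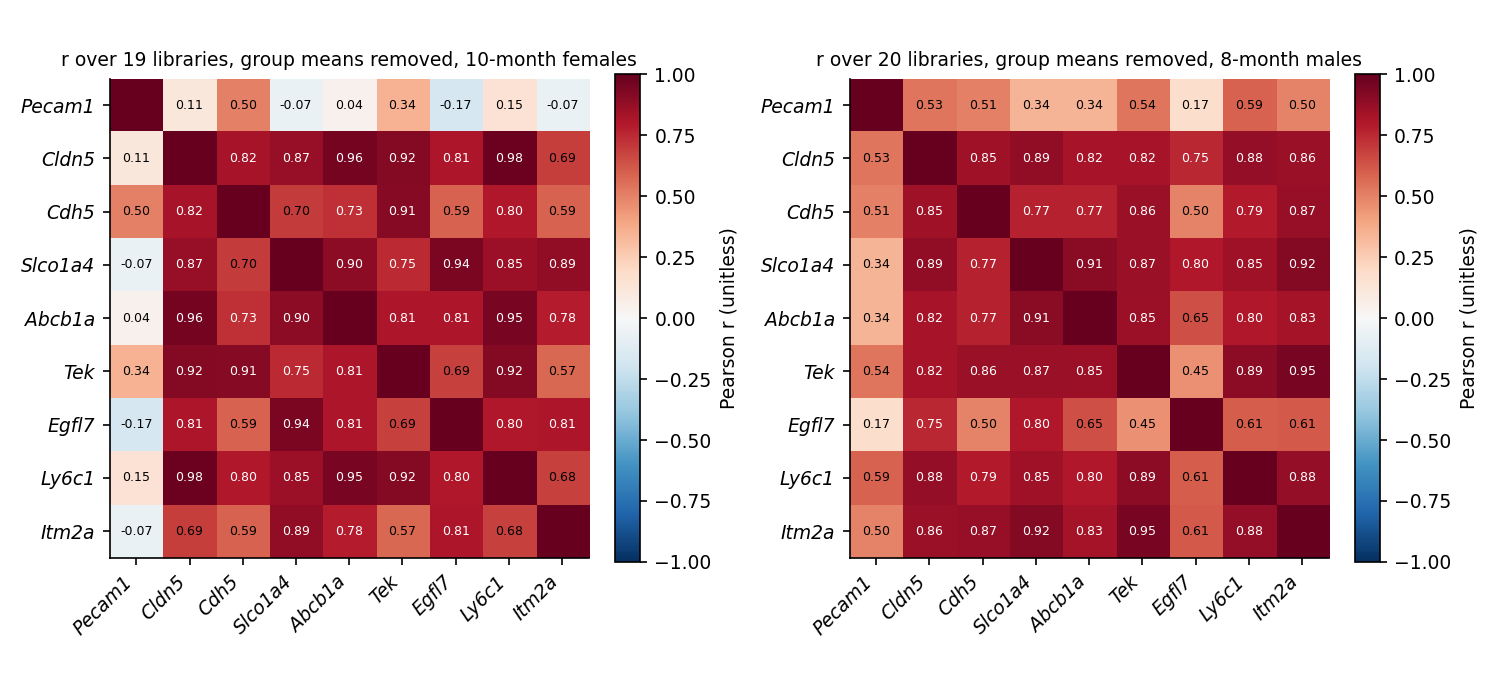
Pearson's r between members across 19 female (left) and 20 male (right) libraries, group means removed; colour and number give r. The Pecam1 row and column are pale, with no r above 0.502 in females or 0.591 in males, while the other pairs run from 0.454 to 0.982.

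Within the groups, libraries with few vessel transcripts were found with and without a low Pecam1. F WT CIH 1 had 9.16 CPM for the sum of the 8 and 50.9 CPM of Pecam1, whereas F WT CIH 5 had 81.5 and 61.0 CPM. M WT NX 3 had 21.1 and 55.6 CPM, whereas M WT NX 4 had 153.8 and 56.9 CPM. In M WT NX 1 (20.5 and 40.7 CPM), M 5XFAD CIH 1 (7.12 and 9.07 CPM) and F 5XFAD CIH 1 (16.2 and 8.42 CPM), both the sum and Pecam1 were the lowest of the group. F WT CIH 2 (11.1 and 41.6 CPM) and F WT NX 4 (28.8 and 40.9 CPM) had the lowest Pecam1 and the second lowest sum of their groups. On the 5XFAD side, M 5XFAD NX 2 had the most vessel transcripts of its group (140.3 CPM) and 28.9 CPM of Pecam1, below every WT library. With the mean of the other 8 genes as a covariate, a fit chosen after the data were seen, the genotype log2FC of Pecam1 was −1.79 in F CIH, −1.34 in M NX and −1.46 in M CIH (edgeR FDR = 2.35e-07, 0.000401 and 1.43e-05), and, with the library labelled F 5XFAD NX 4 kept, −1.52 in F NX (edgeR FDR = 0.0523).

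**Figure D4:**
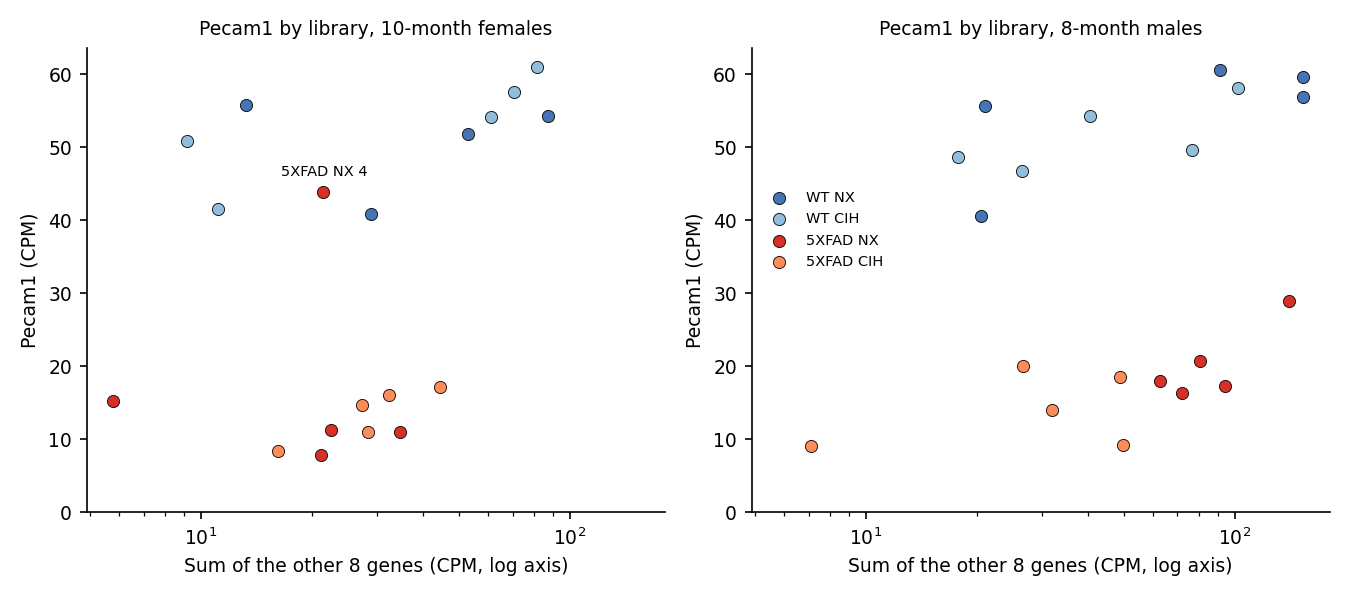
Pecam1 (CPM, linear axis) against the sum of the other 8 genes (CPM, log axis) for each library of females (left) and males (right), coloured by group. WT libraries form a band above 40 CPM and 5XFAD libraries a band below 30 CPM at any sum of the other genes, and the library labelled F 5XFAD NX 4 sits in the upper band.

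The 5 genes whose spread was most like that of Pecam1 are in none of the vessel lists. By the mean of r over both tables, among 13431 genes ranked, Slc13a3 (0.758), a dicarboxylate carrier, Grap (0.747), an adaptor of signalling in leukocytes, Siglece (0.74), a sialic acid receptor of myeloid cells, Pglyrp1 (0.729), a peptidoglycan receptor of neutrophil granules, and Ccr3 (0.723), a chemokine receptor, came first. The members ranked from 339 (Cdh5) to 6250 (Egfl7). Part of this rank rested on 1 library: without the library labelled F 5XFAD NX 4, a choice made after the data were seen, the first 5 were Mal, Grap, Gprc5b, Sox13 and Dgkb, and the members ran from rank 465 (Cdh5) to 3614 (Egfl7). Grap, in both sets, had a median of 76.0 CPM over 9 F WT libraries, 21.3 CPM over the other 9 F 5XFAD libraries, 89.5 CPM over 10 M WT libraries and 30.5 CPM over 10 M 5XFAD libraries.

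For contrast, the genes most like Cldn5 were Sox17 (mean r 0.942), a transcription factor of arterial endothelium, Igfbp7 (0.941), Podxl (0.931), Acta2 (0.928), the smooth muscle actin, and Ltbp4 (0.928). The other 7 vessel members ranked between 3 (Ly6c1) and 76 (Itm2a), whereas Pecam1 ranked 2140, or 1968 without the library labelled F 5XFAD NX 4. Across the 21 other endothelial genes ranked in females and 23 in males, the median r with Cldn5 was 0.863 and 0.784, and with Pecam1 it was 0.18 and 0.482 (0.9 and 0.247 in females without the library labelled F 5XFAD NX 4). Mural cell genes, which mark the pericytes and smooth muscle of vessels, had a median r with Cldn5 of 0.645 in females and 0.759 in males.

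Among 23 further endothelial genes, 4 were called by genotype in each comparison, 3 higher and 1 lower, of 18 tested in F NX, 21 in F CIH, 22 in M NX and 23 in M CIH, beside 5.99%, 13%, 8.25% and 18.7% of all genes. The 3 that rose in 5XFAD were the same in each: Cd34, a sialomucin, Flt1, a VEGF receptor, and Ctla2a, a protease inhibitor. The log2FC of Cd34 was 1.13, 1.31, 1.14 and 1.49 in F NX, F CIH, M NX and M CIH. That of Flt1 was 3.32, 3.23, 2.22 and 2.70. That of Ctla2a, a gene under 1 CPM in WT, was 4.03, 5.13, 3.95 and 5.95. Those that fell were Cd93, a lectin-like receptor, in F NX (−1.51), Plvap, a protein of fenestrated endothelium, in F CIH (−1.29) and M NX (−1.69), and Erg, an ETS factor, in M CIH (−1.56). Without the library labelled F 5XFAD NX 4, where 13.3% of all genes were called, F NX kept Cd34, Flt1, Ctla2a and Cd93 and gained Plvap (−1.21).

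Of the barrier genes, 9, 10, 12 and 11 were tested in F NX, F CIH, M NX and M CIH, where 5.99%, 13%, 8.25% and 18.7% of all genes were called. Those called were Slc2a1, the GLUT1 glucose carrier, and Slc16a1, a monocarboxylate carrier, both higher in F CIH (1.22 and 1.28) and M NX (1.02 and 1.03), Slc2a1 alone in M CIH (1.20), and Slco1c1, a thyroid hormone carrier, lower in F NX (−1.56). Without the library labelled F 5XFAD NX 4, where 13.3% of all genes were called, F NX had Slc2a1 (1.10) and Slc16a1 (1.17) higher and Slco1c1 (−1.32) lower. Of 10 leukocyte adhesion genes tested, Cd38 alone was called, in F NX (−1.69, or −1.67 without that library) and F CIH (−1.06). Of 8 mural cell genes tested, Cspg4, which is also a marker of oligodendrocyte precursors, was called higher in F NX, F CIH, M NX and M CIH (4.75, 5.18, 3.88 and 5.18), and Pdgfrb, the pericyte growth factor receptor, lower in F NX (−1.43, or −1.57 without that library) and F CIH (−1.07). Without that library Abcc9 (−1.14) was called lower in F NX too. Under CIH against NX, 0 genes of these 4 lists were called in any group by the edgeR quasi-likelihood test. Within the list of further endothelial genes, Cd34 was the most abundant per length, with a median of 190.5 CPM in females and 415.6 CPM in males, above any of the 9 members.

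Markers of platelets and border macrophages are given beside Pecam1. The summed level of 6 platelet markers was 31.6 to 38.7 CPM in F WT NX, 33.1 to 37.2 CPM in F WT CIH and 8.86 to 13.1 CPM in F 5XFAD CIH, and in males 36.0 to 66.6 CPM in WT and 10.5 to 20.7 CPM in 5XFAD. In F 5XFAD NX it was 5.67 to 12.8 CPM, and 34.3 CPM in the library labelled F 5XFAD NX 4. Beside 5.99%, 13%, 8.25% and 18.7% of all genes called in F NX, F CIH, M NX and M CIH (13.3% in F NX without that library), of 3 platelet genes tested Gp9 was called lower in F NX, F CIH and M NX, and Treml1 in F CIH, M NX and M CIH, and without the library labelled F 5XFAD NX 4 all 3 were called lower in F NX. In M NX the third gene tested went the other way (log2FC 0.186). Gp9, the most abundant platelet marker, alone had a median of 21.7 CPM in females and 21.4 CPM in males. The 6 border macrophage markers summed to 179 to 336 CPM in F WT NX against 77.6 to 147 CPM in F 5XFAD NX, and to 144 to 309 CPM in F WT CIH against 61.1 to 109 CPM in F 5XFAD CIH. In males they summed to 235 to 329 CPM in WT against 74.7 to 143 CPM in 5XFAD under NX, and to 151 to 333 CPM against 71.9 to 172 CPM under CIH, where the groups overlapped. Of them, 6 were called lower in F NX (6 without that library), 5 in F CIH, 5 in M NX and 1, Mrc1, in M CIH, where 6 of 6 were negative and 3 had an edgeR FDR below 0.05. Platelets and macrophages are known to carry PECAM1, and the part of their transcripts in the Pecam1 difference was not tested. Of the platelet markers, Gp1bb was at 0 in all male libraries.

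Within groups, the median r of Pecam1 with 8 neutrophil genes was 0.746 in females, 0.484 without the library labelled F 5XFAD NX 4, and 0.49 in males. With 3 platelet genes it was 0.628 in females, 0.168 without that library, and 0.148 in males. With 6 border macrophage genes it was −0.0671 in females, 0.122 without that library, and 0.233 in males. Genes of brain cells gave positive medians as well: in females neuronal genes had 0.582, and without that library astrocyte, neuronal and oligodendrocyte genes had 0.563, 0.491 and 0.473, and in males oligodendrocyte genes had 0.475. Over all genes ranked the median was 0.0756 in females, −0.0125 without that library, and −0.00777 in males.

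Markers of the other cell types were counted by genotype in F NX, F CIH, M NX and M CIH, in that order, where 5.99%, 13%, 8.25% and 18.7% of all genes were called. Of 12 microglial genes, 1, 2, 2 and 3 were called, all lower (Tmem119 in F NX, Tmem119 and P2ry12 in F CIH and M NX, P2ry12 and Sall1 in M CIH) except C1qa in M CIH (1.41). Of 8 neutrophil genes, 0, 0, 0 and 3 were called, all lower (Ngp, Camp and Ltf). Monocyte genes gave 1, 1, 0 and 1 calls, lower for Ccr2 in females and higher for Ly6c2 (1.04) in M CIH. Lymphocyte genes gave 0, 0, 1 and 3, lower for Cd79b in M NX and higher for Cd3e, Cd3g and Nkg7 in M CIH, and erythroid genes gave 0, 0, 2 and 0, lower for Hba-a1 and Hbb-bs. Astrocyte genes gave 1, 4, 3 and 2, with Gfap higher in each (7.48, 8.41, 10.01 and 8.58) and Gja1 lower in M CIH. Oligodendrocyte genes gave 0, 1, 3 and 2, all higher, with Mbp in the last 3 (1.33, 1.57 and 1.37). Neuronal genes gave 0, 2, 2 and 0 (Map2 higher and Snap25 lower), and fibroblast genes gave 1, 0, 0 and 0 (Col3a1, 1.91). Without the library labelled F 5XFAD NX 4, where 13.3% of all genes were called, F NX had 2 microglial, 2 neutrophil, 2 monocyte, 1 lymphocyte and 3 erythroid genes called lower, Gfap higher and Gja1 lower, Col3a1 higher, and 0 oligodendrocyte or neuronal genes. By treatment these lists gave calls only in M WT, with 6 neutrophil and 2 monocyte genes lower and 1 astrocyte and 1 oligodendrocyte gene higher. The part of these cells in the values of the 9 genes was not tested.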

How the data were processed

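RNA of CD11b+ cells was sequenced in 39 libraries. The authors aligned paired-end reads to GRCm38 (mm10; HISAT2 is named in the submitters' processing notes without a version; the counting tool is not given in the sources used here) and deposited, for each sex, 1 table of raw counts per gene and 1 table of FPKM values. The deposited FPKM values equal counts over gene length and a scaling factor of each library. In females that factor followed the library total. In males it did not: Pecam1 had means of 54.66 CPM and 8.192 FPKM in M WT NX, but 20.29 CPM and 3.485 FPKM in M 5XFAD NX. The FPKM values were used for the order of levels and for 1 alternative test.

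Libraries were grouped by the labels. Each pair of groups was compared with the quasi-likelihood test of edgeR 4.0.16 (R 4.3.3; TMM scaling, genes above 1 CPM in at least 3 compared libraries, Benjamini-Hochberg FDR over all genes tested). Calls needed an absolute log2FC over 1 besides an FDR below 0.05. The SE is the absolute log2FC over the square root of F, and log2FC is the group named second over the first. Intervals of log2FC are normal 95% intervals from the SE. Interactions were fitted over the 4 groups of a sex. Correlations used log2 CPM with a prior count of 1 and permuted pairings within groups 100000 times (numpy 2.4.6, scipy 1.17.1, Python 3.11.15), adjusted over 16 relations. The test was checked on simulated counts.

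The 9 genes and all lists (other endothelial, blood-brain barrier, leukocyte adhesion, mural, fibroblast, microglia, border macrophage, neutrophil, monocyte, platelet, lymphocyte, erythroid, astrocyte, oligodendrocyte, neuron) were chosen with earlier results of these data known. Named genes are the 9, every called gene of another list (or the 2 largest rises and 2 largest falls where over 4 were called), the 5 most like Pecam1 and Cldn5, and the most abundant marker of a list. The methods state independent samples, and p-values measure the spread between libraries. A floor of 3 counts covers counting error only. Alternatives were the likelihood ratio test, DESeq2 1.42.0, library size alone, other filters, 1 fit of all groups, limma 3.58.1 on log2(FPKM + 1) and log2(FPKM + 0.1), a replicate block and each library left out. A covariate fit and likeness without 1 library were added after the data were seen.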

Additional observations from a re-analysis of the deposited data

Results flagged for a closer look

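Of 72 groups of 4 or 5 libraries examined (9 genes in 8 groups), 2 held a library far from the rest, and chance alone flags about 1 group in 20. Both concern Pecam1. The library labelled F 5XFAD NX 4 had 43.9 CPM where the other 4 had 7.91 to 15.3 CPM, a gap of 0.795 of the group's range against a limit of 0.71. It is the library that went against its genotype label by Cst7 and Gfap. M WT NX 1 had 40.7 CPM where the other 4 had 55.6 to 60.5 CPM, a gap of 0.754 of the range. Its sum of the other 8 genes (20.5 CPM) was the lowest of its group, next to 21.1 CPM in M WT NX 3, where Pecam1 was 55.6 CPM.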

How the results depend on the processing

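Among the 9 genes, the number called in F WT NX vs F 5XFAD NX was 1 and became 0 with library size alone or a replicate block, 0 to 1 as each library was left out (1 only without the library labelled F 5XFAD NX 4). In F WT CIH vs F 5XFAD CIH it was 1, and 1 to 2 with a library left out (2 without F 5XFAD CIH 3). In M WT NX vs M WT CIH it was 0, became 1 with no filter on low counts (Cldn5), and ran from 0 to 2 with a library left out (2 without M WT NX 1). The median r of Pecam1 with the other 8 ran from −0.0295 to 0.181 in females and from 0.299 to 0.593 in males with a library left out, and was 0.234 in males when group means were kept. The female median turned negative without F WT CIH 2. No called value changed sign. For single genes, 1895 values stayed on their side of the threshold, 4 passed it anew and 11 no longer did; values that were not called could change sign, as Pecam1 did in F 5XFAD NX vs F 5XFAD CIH. Of all genes, 869 were called in F WT NX vs F 5XFAD NX, 1180 by the likelihood ratio test, 1199 by DESeq2, 1330 in 1 fit of all 4 groups, 457 by limma on log2(FPKM + 1), 7 with the replicate block and 1880 without the library labelled F 5XFAD NX 4, but 27 to 525 without any 1 other library (27 without F WT NX 3, 100 without F WT NX 4, 103 without F 5XFAD NX 5). In M WT NX vs M WT CIH 376 were called, 126 by that limma test, 0 in 1 fit of all 4 groups and 621 without M WT NX 1. With no filter on low counts F WT NX vs F WT CIH had 18 and the male interaction 663, against 0 for each, and that interaction had 478 without M 5XFAD NX 1 and 456 with the covariate. That limma test called 1020 in F CIH (against 1932), 708 in M NX (against 1224) and 1571 in M CIH (against 2764). With log2(FPKM + 0.1) limma called 760 in F NX, 1790 in F CIH, 1262 in M NX, 2711 in M CIH and 454 in M WT NX vs M WT CIH. Scaling by library size alone moved the median log2FC of all genes by genotype to −0.169, −0.21, −0.164 and −0.432 in F NX, F CIH, M NX and M CIH. The causes were not tested. Equal replicate numbers did not pair the libraries: same-numbered libraries correlated from −0.553 to 0.307, and no comparison had every pair above 0.1. Depth limits the vessel genes, whose levels reached down to 0 counts.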
